A study of Homo sapiens with 6 samples.

Results

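The 10 genes described here encode the enzymes that build fatty acids from acetyl-CoA and then lengthen and desaturate them. They were chosen by symbol as lipogenic enzymes that share control by sterol regulatory element-binding protein (SREBP) with sterol synthesis: ACLY, ACSS2, ACACA, FASN, ME1, SCD, FADS1, FADS2, ELOVL5 and ELOVL6. All 10 were found among the 19937 genes of the count table, and all 10 were among the 12450 genes kept for testing after genes with low counts were removed. The study asked how silencing of squalene epoxidase (SQLE), an enzyme of cholesterol synthesis, changed the transcriptome of U2OS, an established human osteosarcoma cell line. The shSQLE group held 3 libraries from U2OS cells with a stable hairpin against SQLE, and the shControl group held 3 libraries from U2OS cells with a stable scrambled hairpin. Both hairpins were carried by the pGIPZ plasmid and delivered by lentivirus, and both populations were selected with puromycin and grown in McCoy's 5a medium with fetal bovine serum. The labels do not name which hairpin against SQLE was used, nor whether replicate libraries were grown as separate cultures, so that SDs and p-values measure the spread among these libraries only.

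Fatty acid synthesis starts from cytosolic acetyl-CoA, which ACLY makes from citrate and ACSS2 from acetate. ACACA carboxylates it to malonyl-CoA in the committed step, FASN assembles palmitate with NADPH that ME1 helps to supply, ELOVL6 lengthens palmitate to stearate, and SCD introduces unsaturation into stearate to give oleate. FADS1, FADS2 and ELOVL5 act on polyunsaturated chains. SREBP-1, encoded by SREBF1, is the main transcription factor of these genes, whereas SREBP-2, encoded by SREBF2, acts mostly on sterol synthesis, and both are held in the endoplasmic reticulum by INSIG proteins when sterols are plentiful.

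Total counts per library ranged from 12212378 to 14393292. SQLE itself was at 1349, 1867 and 1924 normalized counts in the controls, replicates 1 to 3 in order, and at 229, 204 and 219 with the hairpin against it, a remaining level of 12.7%. Of the 10 mesenchymal and osteoblast markers, 9 had more than 3 counts in at least 1 library, with VIM and SPARC the most abundant, whereas ALPL had at most 2 counts and COL1A2 at most 6. Their summed normalized count, most of it VIM, was 44290 to 50480 in shControl and 46620 to 52150 in shSQLE. Of the 8 markers tested, 6 were lower by fold change, with a median of -0.23. COL1A1 fell by 0.65 on the log2 scale (edgeR adjusted p = 0.0452), and SPARC was at -0.28 without overlap of the groups (adjusted p = 0.185). The adipocyte hormones ADIPOQ and LEP, the leukocyte marker PTPRC and the hepatocyte genes APOB, TTR and FGB were at 0 counts in all 6 libraries. Of the 8 adipocyte markers, 3 exceeded 3 counts in some library (PPARG, LPL and FABP4), and their list summed to 664.7 to 685.9 normalized counts in shControl and 739.2 to 777.5 in shSQLE. Of the 6 hepatocyte markers 2 did (SERPINA1 and ALB), with sums of 21.6 to 53.1 in shControl and 7.20 to 11.8 in shSQLE and SERPINA1 called lower (-2.65, edgeR adjusted p = 0.0350), and of the 5 epithelial markers 2 did (EPCAM and CLDN4), with overlapping sums. The part of these markers in the results below was not tested. Library shControl replicate 1 stood apart from the other control libraries. Calls of the genes and lists named below, other than SLC25A20 and CPT1A, are therefore also given without it where they change.

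Lipogenic genes took 0.282% to 0.335% of all counts in the shControl libraries and 0.235% to 0.271% in the shSQLE libraries, so that the groups did not overlap. Of the 10 genes, 9 were lower in shSQLE by fold change, where 6420 of all 12450 genes tested were. The median log2 fold change of the 10 genes was -0.26 against -0.01 over all genes tested. None passed an adjusted p of 0.05 in the quasi-likelihood test of edgeR, adjusted over all genes tested by the Benjamini-Hochberg method (0 lower and 0 higher), where 2.84% of all genes were called lower and 0.369% higher. At an unadjusted p under 0.05, 5 were lower, namely SCD, FASN, FADS1, FADS2 and ACACA, against 9.89% of all genes. In 4 of them, SCD, FASN, FADS1 and FADS2, the highest shSQLE library was under the lowest shControl library, against 12.1% of all genes tested. No lipogenic gene had all shSQLE libraries above all shControl libraries, against 10.0% of all genes. A bulk library cannot tell fewer cells that express a gene from less RNA per cell.

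SCD was the most abundant of the 10 genes per length of transcript. Its level in shControl was 2781 ± 281 normalized counts per kb (SD, n = 3), above 97.5% of all genes tested. FASN followed at 1272 ± 113, and the shControl libraries of SCD, FASN and ACLY did not overlap at these steps. ACLY, ELOVL5, FADS1 and FADS2 formed a middle group, from 1076 ± 148 for ACLY to 669.9 ± 98.0 for FADS2, in which neighbours in the order overlapped. ELOVL6, ACSS2, ACACA and ME1 formed the lowest group, from 254.5 ± 41.1 for ELOVL6 to 144.6 ± 30.6 for ME1, and neighbours overlapped here as well. ME1, the least abundant, still lay above 56.4% of all genes tested. The order in shSQLE differed in the placing of ACLY (1063 ± 74.4) above FASN (997.7 ± 23.7) and of ME1 (125.1 ± 8.67) above ACACA (122.7 ± 22.3), and the libraries of each of these pairs overlapped. Summed over the 10 genes, the per-length level was 7630, 8571 and 8448 in shControl replicates 1 to 3 and 6840, 6530 and 7130 in the shSQLE replicates. SCD alone made 32.2% to 34.6% of that sum in shControl and 29.9% to 30.4% in shSQLE.

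**Figure D1:**
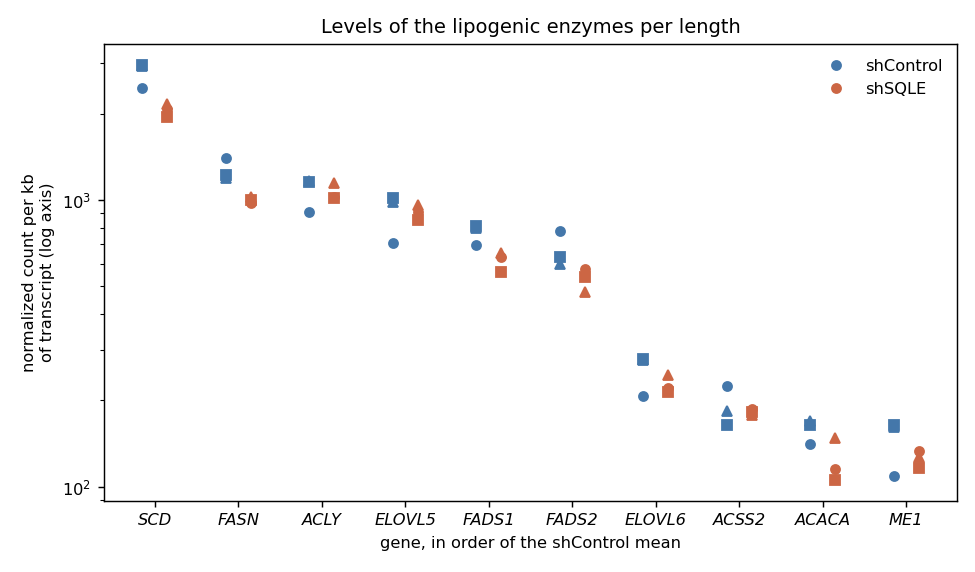
Normalized counts per kb of the canonical transcript (log axis) for the 10 lipogenic genes, ordered by the shControl mean, with blue marks for shControl, orange marks for shSQLE, and a circle, square or triangle for replicate 1, 2 or 3. SCD lies highest, at 2781 per kb on average in shControl, and ME1 lowest, at 144.6.

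The enzymes that supply cytosolic acetyl-CoA showed nearly equal means in both groups. ACLY, ATP citrate lyase, had normalized counts of 3886, 4973 and 5004 in shControl replicates 1 to 3 and of 4409, 4352 and 4932 in the shSQLE replicates. The groups overlapped, since shControl replicate 1 was the lowest of the 6 libraries, and the log2 fold change was -0.02 (95% interval -0.32 to 0.28). ACSS2, which activates acetate, had 647, 474 and 528 in shControl and 537, 526 and 514 in shSQLE. Here shControl replicate 1 was the highest library and shControl replicate 2 the lowest, and the log2 fold change was -0.06 (95% interval -0.39 to 0.27). These intervals leave room for changes of up to about 0.39 on the log2 scale, so that equal levels were not shown. Without shControl replicate 1, the log2 fold change of ACLY was -0.13 and that of ACSS2 turned to 0.07, with edgeR adjusted p of 0.238 and 0.599.

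ACACA and FASN, the carboxylase and the synthase of the core pathway, were both lower in shSQLE by fold change. ACACA had normalized counts of 1413, 1645 and 1690 in shControl replicates 1 to 3 and of 1150, 1056 and 1481 in the shSQLE replicates. Only shSQLE replicate 3 lay within the control range, above shControl replicate 1, and the log2 fold change was -0.37 (standard error 0.15, edgeR adjusted p = 0.317). FASN had 11865, 10372 and 10074 in shControl and 8245, 8443 and 8646 in shSQLE. The FASN groups did not overlap, with shSQLE at 78.4% of the shControl mean, 10770 ± 960 against 8445 ± 201 (SD, n = 3 each). The log2 fold change of FASN was -0.35 (standard error 0.10, unadjusted p = 0.00962, edgeR adjusted p = 0.145). ME1, the cytosolic malic enzyme, had 365, 545 and 538 in shControl and 444, 386 and 422 in shSQLE. Its shSQLE libraries lay above shControl replicate 1 and below the other control libraries, and the log2 fold change was -0.21 (95% interval -0.62 to 0.19).

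SCD, the stearoyl-CoA desaturase, had the lowest fold change of the 10 genes. Its normalized count was 12889, 15533 and 15341 in shControl replicates 1 to 3 and 10882, 10236 and 11378 in the shSQLE replicates. All 3 shSQLE libraries were under the lowest control (exact permutation test over libraries, two-sided, p = 0.1, the smallest that 3 against 3 allow). The mean was 14588 ± 1474 in shControl and 10832 ± 573 in shSQLE (SD, n = 3 each), or 74.2% of the control level. The log2 fold change was -0.43 (standard error 0.11, 95% interval -0.69 to -0.17), with an unadjusted p of 0.00510 and an edgeR adjusted p of 0.0997. DESeq2 gave -0.42 with an adjusted p of 0.0293, and in that tool SCD was the only lipogenic gene called (1 of 10, where 4.56% of all genes were called lower). limma-voom called 0 of the 10, with an adjusted p of 0.110 for SCD.

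FADS1 and FADS2, the delta-5 and delta-6 desaturases of polyunsaturated fatty acids, lie on opposite strands of chromosome 11 of hg38, where the annotated span of FADS1 (61799627 to 61829318, - strand) falls within that of FADS2 (61792980 to 61867354, + strand). FADS1 had normalized counts of 3027, 3543 and 3484 in shControl replicates 1 to 3 and of 2751, 2454 and 2857 in the shSQLE replicates. FADS2 had 2416, 1948 and 1848 in shControl and 1774, 1660 and 1476 in shSQLE. Neither gene had overlapping groups (two-sided exact permutation test over libraries, p = 0.1 for each, the smallest that 3 against 3 allow), although shControl replicate 1 was the lowest control for FADS1 and the highest for FADS2. The log2 fold changes were -0.32 for FADS1 (standard error 0.11) and -0.34 for FADS2 (standard error 0.14), with edgeR adjusted p of 0.232 and 0.299. Annotated exons of the pair overlap by 490 bases on opposite strands, which is 4.79% of the exonic bases of FADS1. The use of the strand in counting is not given in the sources used here, so reads from that stretch cannot be assigned with certainty.

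Of the elongases, ELOVL5 had nearly equal means in both groups and ELOVL6 a lower mean in shSQLE, and neither difference exceeded the spread between libraries. ELOVL5, which lengthens polyunsaturated chains, had normalized counts of 1961, 2797 and 2713 in shControl replicates 1 to 3 and of 2500, 2355 and 2655 in the shSQLE replicates. Its 3 shSQLE libraries lay between shControl replicate 1 and the other controls, and the log2 fold change was 0.01 (95% interval -0.34 to 0.35). ELOVL6, which lengthens saturated and monounsaturated chains, had 1360, 1838 and 1818 in shControl and 1455, 1402 and 1610 in shSQLE. The same order of libraries held for ELOVL6, with a log2 fold change of -0.17 (95% interval -0.50 to 0.16).

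**Figure D2:**
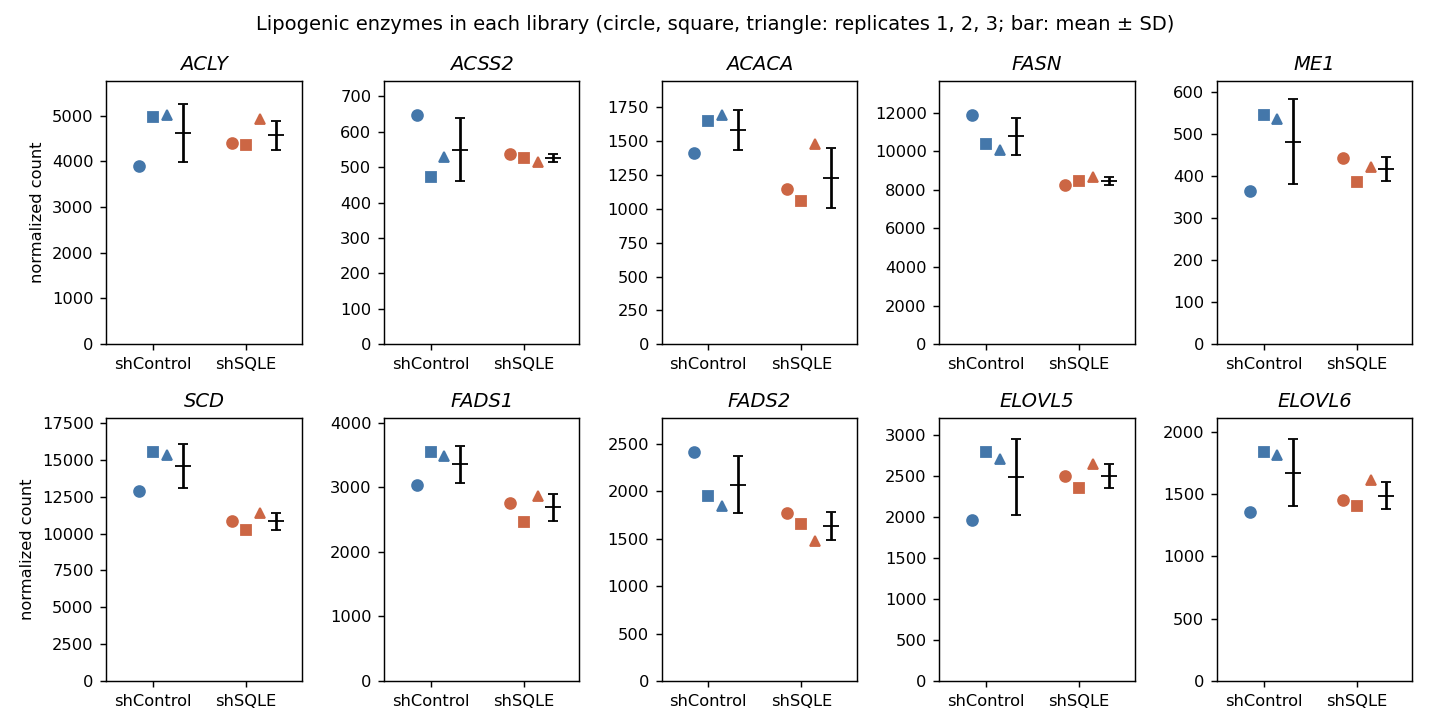
Normalized counts of the 10 lipogenic genes in each of the 6 libraries, with a circle, square or triangle for replicate 1, 2 or 3 and the mean ± SD of the 3 libraries beside each group. The groups are separate for FASN, SCD, FADS1 and FADS2, and shControl replicate 1 (blue circle) is the lowest control for 7 genes and the highest for 3.

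The place of shControl replicate 1 followed the base composition of the transcript. It was the lowest control library for 7 lipogenic genes and the highest for ACSS2, FASN and FADS2, and never the middle. The shControl range over 3 libraries was 15.4% to 37.4% of the mean, whereas replicates 2 and 3 alone differed by 0.621% (ACLY) to 10.8% (ACSS2). GC content of the canonical transcript ran from 39.3% for ME1 to 65.3% for FASN. On the log2 CPM scale, shControl replicate 1 deviated from its group mean by -0.38 for ME1, by -0.33 for ELOVL5 and by -0.28 for ELOVL6, the most AT-rich of the 10, and by 0.25 for ACSS2, 0.23 for FADS2 and 0.14 for FASN, the most GC-rich. Across the 10 genes the Pearson correlation of this deviation with GC content was 0.851, and across 12447 genes tested it was 0.723. The genes share 1 library and are no replicates, so these correlations describe that library only. Over the same 12447 genes the correlation was 0.076, 0.408 and -0.427 in shSQLE replicates 1 to 3. It was -0.582 and -0.655 in shControl replicates 2 and 3. Deviations within a group are taken from their shared mean and so depend on each other. The 10 genes were therefore fitted again without shControl replicate 1, and with trends on GC content and length taken out.

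**Figure D3:**
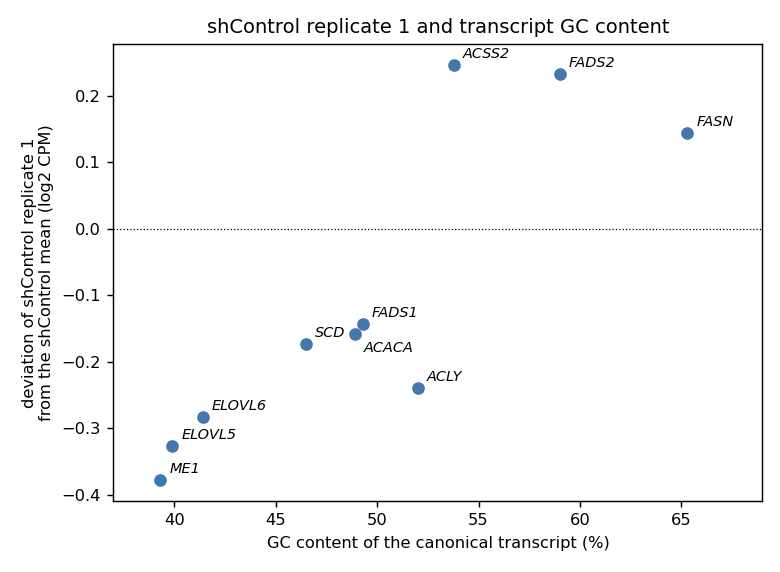
Deviation of shControl replicate 1 from the shControl mean, in log2 CPM, against the GC content of the canonical transcript in %, with 1 point for each of the 10 lipogenic genes. ME1, at 39.3% GC, lies lowest at -0.38, and the 3 genes of highest GC content, ACSS2, FADS2 and FASN, lie above 0.

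Without shControl replicate 1, the fit called 6 of the 10 genes lower, where 18.3% of all genes were called lower. These were SCD at -0.51 (adjusted p = 0.000501), ACACA at -0.44 (0.0136), FADS1 at -0.39 (0.00426), ME1 at -0.37 (0.0126), ELOVL6 at -0.30 (0.0176) and FASN at -0.28 (0.0127), all edgeR adjusted p-values. FASN and FADS2 moved toward 0 in this fit, FADS2 from -0.34 to -0.21 (adjusted p = 0.0851), and FADS2 was not called. With smooth trends on GC content and transcript length taken out of each library, all 6 libraries kept, 5 genes were called lower, where 10.4% of all genes were called lower. These were SCD at -0.41 (adjusted p = 0.000709), FADS2 at -0.34 (0.00530), FADS1 at -0.32 (0.00809), ACACA at -0.29 (0.0259) and FASN at -0.21 (0.0322). SCD, FADS1, ACACA and FASN were thus called in both of these fits, ME1 and ELOVL6 only without shControl replicate 1, and FADS2 only with the trends taken out. Both fits share libraries, and the trends were estimated from the same counts, so the fits are not independent of each other. ACLY, ACSS2 and ELOVL5 were called in none of the fits run. Every fit that left out any other library called 0 of the 10.

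**Figure D4:**
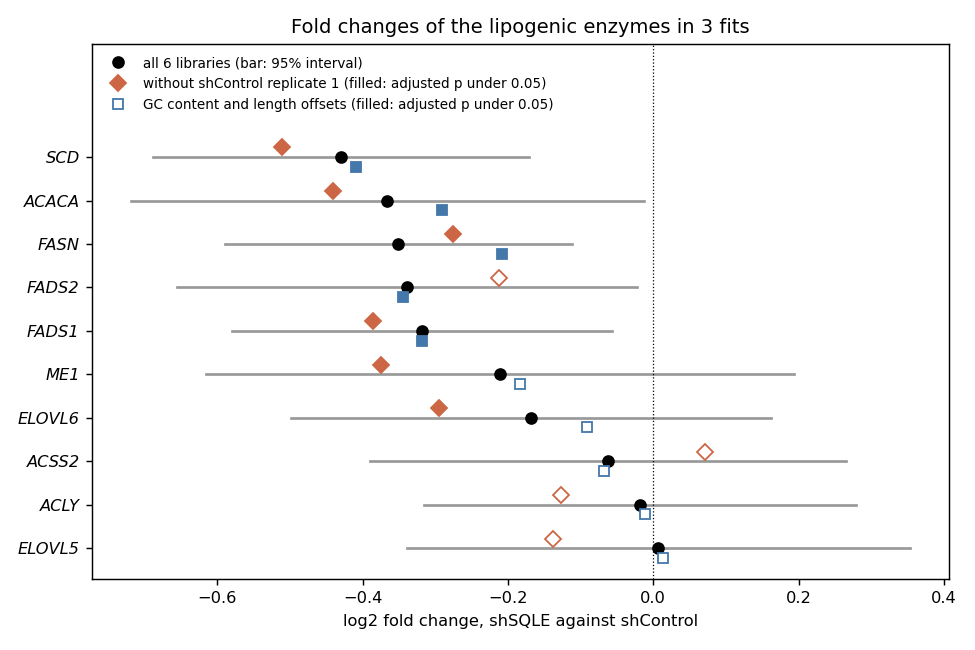
Log2 fold change of shSQLE against shControl for the 10 lipogenic genes, with black points and grey 95% intervals for all 6 libraries, orange diamonds for the fit without shControl replicate 1 and blue squares for the fit with GC content and length taken out (filled where the adjusted p is under 0.05). SCD is the lowest in each of the 3 fits, from -0.51 to -0.41, and ACLY, ACSS2 and ELOVL5 are filled in none.

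Promoter sequences of 3 of the genes are shown to set a gene whose groups were apart by the largest fold change (SCD) and a desaturase gene whose groups were also apart (FADS1) beside the gene with the fold change nearest 0 (ELOVL5). They are the RefSeq windows of GRCh38.p14 from 250 bases before to 50 bases after the annotated start, 5′ to 3′ on the strand of the gene: chr10:100346983-100347282 (+) for SCD, chr11:61816954-61817253 (-) for FADS1 and chr6:53348901-53349200 (-) for ELOVL5. Capitals mark matches, on either strand, to the CCAAT box (CCAAT, the site of NF-Y, which acts together with SREBP), the GC box (GGGCGG, the site of Sp1) and the E box (CACGTG).
SCD: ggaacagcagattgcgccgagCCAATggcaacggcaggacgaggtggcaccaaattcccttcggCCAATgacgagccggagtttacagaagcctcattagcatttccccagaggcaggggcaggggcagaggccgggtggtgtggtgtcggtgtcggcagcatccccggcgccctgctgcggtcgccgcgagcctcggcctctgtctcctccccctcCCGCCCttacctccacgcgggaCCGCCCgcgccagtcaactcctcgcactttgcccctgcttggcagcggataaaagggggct
FADS1: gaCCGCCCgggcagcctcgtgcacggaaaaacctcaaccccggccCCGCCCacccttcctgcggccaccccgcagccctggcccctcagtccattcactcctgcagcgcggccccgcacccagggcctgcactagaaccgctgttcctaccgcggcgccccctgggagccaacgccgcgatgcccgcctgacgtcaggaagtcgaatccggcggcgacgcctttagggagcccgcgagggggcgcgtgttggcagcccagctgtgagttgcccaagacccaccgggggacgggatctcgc
ELOVL5: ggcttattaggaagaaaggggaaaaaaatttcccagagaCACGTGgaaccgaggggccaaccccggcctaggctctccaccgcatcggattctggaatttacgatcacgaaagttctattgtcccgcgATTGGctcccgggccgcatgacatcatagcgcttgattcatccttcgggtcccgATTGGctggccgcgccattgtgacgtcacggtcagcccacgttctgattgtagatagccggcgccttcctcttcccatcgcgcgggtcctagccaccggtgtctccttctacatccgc
SCD and ELOVL5 each held a pair of CCAAT boxes, at -229 and -186 in SCD and at -122 and -68 in ELOVL5, given as the position of the first matching base from the start site. FADS1 held none and had GC boxes at -248 and -205, while SCD had GC boxes at -33 and -11. The sterol response element TCACNCCAC was also searched on both strands, and none of the 14 windows of the 9 genes in the table held it, against 1.13% of all 35116 windows. At so low a share 14 windows would seldom hold it, so its absence does not show that these genes lack such elements. FASN had no entry. CCAAT boxes were in 8 of the 14 windows (6 of 9 genes), against 34.6% of all windows, GC boxes in 11 (8 of 9 genes), against 45.0%, and the E box in 1, that of ELOVL5, against 7.26%. No motif searched overlapped another in the 3 windows shown. These matches describe letters in short windows, and several of the windows belong to the same gene.

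The factors that drive or hold back the lipogenic genes were measured in the same libraries. SREBF1 had normalized counts of 1975, 1341 and 1378 in shControl replicates 1 to 3 and of 844, 910 and 804 in the shSQLE replicates, with no overlap. Its log2 fold change was -0.88 (standard error 0.17, edgeR adjusted p = 0.0332) and -0.67 without shControl replicate 1 (adjusted p = 0.000143). Annotated exons of SREBF1 overlap RAI1 on the opposite strand by 556 bases, 6.75% of the exonic bases of SREBF1. Reads from that stretch cannot be assigned with certainty. Of the 100-base stretches of the canonical SREBF1 transcript, 0.437% occur in transcripts of RAI1. INSIG1, itself a target of SREBP, had 629, 745 and 738 in shControl and 472, 433 and 394 in shSQLE, a log2 fold change of -0.70 (adjusted p = 0.0293). Of the 6 fits with a library left out, SREBF1 and INSIG1 were each called in 1, that without shControl replicate 1. INSIG1 lost its call with the replicate number as a block (adjusted p = 0.0562). SREBF2 was at 2490 ± 30.7 in shControl and 2517 ± 17.9 in shSQLE (SD, n = 3 each, log2 fold change 0.02). SCAP, the escort of SREBP out of the endoplasmic reticulum, was at 0.33 (adjusted p = 0.372) and at 0.48 without shControl replicate 1 (adjusted p = 0.00209), and was also called with GC content and length taken out (0.37, adjusted p = 0.00304). MLXIPL, which encodes the glucose-responsive lipogenic factor ChREBP, had 1 to 10 counts per library and was not tested. Of 20 regulators tested, 2 were called lower and 0 higher, where 2.84% of all genes were called lower and 0.369% higher. The median of the regulators was 0.01. Without shControl replicate 1, 5 of the 20 were called in either direction, where 4264 of all 12570 genes tested were. With GC content and length taken out 4 were, where 2185 of all 12450 genes tested were.

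Genes around the 10 enzymes were read from lists of the same pathway. Beside the counts below, 6030 of all 12450 genes tested were higher by fold change with all 6 libraries. In that fit 2.84% of all genes were called lower and 0.369% higher. Without shControl replicate 1, 4264 of all 12570 genes tested were called in either direction. With GC content and length taken out, 2185 of all 12450 genes tested were. Among 13 genes of carbon and NADPH supply 10 were higher by fold change (median 0.14), with 0 called in either direction, and the smallest p belonged to ACO1, the cytosolic aconitase, at 0.43 (adjusted p = 0.169), and IDH1, the cytosolic isocitrate dehydrogenase, at -0.21. Without shControl replicate 1, 8 of the 13 were called, ACO1 (adjusted p = 0.0176) and IDH1 (0.0166) among them, and with GC content and length taken out 4 were, again with ACO1 (0.000687) and IDH1 (0.0390). Among 7 partners of acetyl-CoA carboxylase the median was -0.03 with 0 called, and MLYCD (malonyl-CoA decarboxylase) and PRKAA2 (a catalytic subunit of AMP-activated kinase) had the smallest p, at -0.26 and -0.14. Without shControl replicate 1, 1 of these 7 was called, and with GC content and length taken out 0 were. Of 9 other elongases and enzymes of the elongation cycle 0 were called (median -0.02), against 2 without shControl replicate 1 and 1 with GC content and length taken out. ELOVL4, which makes very long chains, was at -0.62 (adjusted p = 0.183) and called without shControl replicate 1 (adjusted p = 0.00610) and with GC content and length taken out (adjusted p = 0.0199), and ELOVL7 was at -0.32. Of 9 other desaturases and electron donors 0 were called (median 0.07), with the SCD paralog SCD5 at 0.20 and the cytochrome CYB5B at 0.19.

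No gene was called in 3 further lists (0 by edgeR with all 6 libraries, where 2.84% of all genes were called lower and 0.369% higher). The median was -0.09 over 11 acyl-CoA synthetases and uptake genes, -0.10 over 17 genes of glycerolipid assembly and 0.14 over 8 genes of mitochondrial fatty acid synthesis. ACSL3, which activates long-chain fatty acids at the endoplasmic reticulum and lipid droplets, had the smallest p of these genes. Its normalized count was 1370, 1984 and 1925 in shControl replicates 1 to 3 and 1076, 1039 and 1147 in the shSQLE replicates, without overlap, at a log2 fold change of -0.69 (standard error 0.16, edgeR adjusted p = 0.0602). It was called by DESeq2 (adjusted p = 0.00389), with GC content and length taken out (-0.62, adjusted p = 0.000268) and without shControl replicate 1 (-0.85, adjusted p = 1.18e-05). FABP5, a fatty acid-binding protein, was at 0.31, and GPAM and AGPAT4, acyltransferases of glycerolipid synthesis, were at -0.47 and -0.39, all with adjusted p above 0.05 (0.328, 0.296 and 0.295). FABP5 and GPAM were called without shControl replicate 1 (adjusted p = 0.00501 and 0.000805) and with GC content and length taken out (0.0348 and 0.00718), and AGPAT4 in neither fit. NDUFAB1, the mitochondrial acyl carrier protein, was at 0.33 and MECR, a reductase of mitochondrial fatty acid synthesis, at 0.23. NDUFAB1 was called in both of those fits (0.00117 and 0.0202) and MECR only without shControl replicate 1 (0.0168). Without that library the calls in either direction came to 3 of 11 synthetases and uptake genes, 5 of 17 glycerolipid genes and 3 of 8 mitochondrial genes. With GC content and length taken out they came to 2, 4 and 1. Over all genes tested, 4264 of 12570 and 2185 of 12450 were called in these fits, in that order.

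Sterol synthesis enzymes other than SQLE, which share control by SREBP, had a median of -0.06 over 19 genes, with 11 lower by fold change, 0 called and 0 at an unadjusted p under 0.05. The corresponding values of the lipogenic enzymes were -0.26, 9 of 10, 0 and 5. Over all genes tested, 6420 of 12450 were lower by fold change, 2.84% were called lower and 0.369% higher. At an unadjusted p under 0.05, 9.89% of all genes were lower. HSD17B7, which acts late in cholesterol synthesis, had the smallest p of the sterol enzymes, at -0.29 (edgeR adjusted p = 0.35), and was called with GC content and length taken out (-0.38, adjusted p = 0.00946). Without shControl replicate 1, 8 of the 19 sterol enzymes were called in either direction, where 4264 of all 12570 genes tested were. With GC content and length taken out 3 were, where 2185 of all 12450 genes tested were. The difference between the lists was not tested.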

How the data were processed

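Poly(A) RNA of 6 U2OS libraries was sequenced as 151 bp read pairs. Per the submitters' processing notes, the tools were fastp 0.20.0 for trimming, STAR 2.7.9a for alignment (build hg38) and featureCounts 2.0 for counting. The table the authors deposited holds un-normalized whole-number counts of reads for each gene. Annotation release, strand setting and handling of reads that map to several places are not given in the sources used here. Of 19937 identifiers, 19355 had a symbol.

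The model was fitted in R 4.3.3 with edgeR 4.0.16 (filterByExpr, TMM, quasi-likelihood test, condition as the only term, Benjamini-Hochberg adjustment, threshold 0.05) and limma 3.58.1. DESeq2 1.42.0 and mgcv 1.9.3 served alternatives. Normalized counts are scaled to the average of the TMM-adjusted library sizes. Levels per kb used the length of the canonical GENCODE v44 transcript, which need not be the isoform expressed. Log2 CPM used a prior count of 2. No 100-base stretch of the canonical transcripts of ACSS2, ACACA, FASN, ME1, SCD or ELOVL5 occurred in transcripts of another gene, and 0.896% to 1.70% did for ACLY, FADS1, FADS2 and ELOVL6.

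The members, the lists and the alternatives were chosen with earlier results of these data known. Genes named were the 10 enzymes, SQLE, SREBF1, SREBF2, SCAP, INSIG1, MLXIPL and, from each other list, the genes past the adjusted p or else the 2 with the smallest p. A gene that this rule names is not reported here. Alternatives were RLE size factors, library size only, DESeq2, limma-voom, other filters on low counts, the replicate number as a block, smooth trends on GC content and length removed as offsets, and each library left out. The fit was tested on simulated counts with known changes, drawn gene by gene with no trend on GC content in any library. That test cannot show how the fit handles the deviation of shControl replicate 1.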

Additional observations from a re-analysis of the deposited data

How the results depend on the processing

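The 10 lipogenic genes kept the sign of their fold change with RLE size factors, DESeq2, limma-voom, other filters on low counts, the replicate block, and GC content and length taken out. The exceptions came from library size only, where ELOVL5 changed sign, and from leaving out a library, where ACLY (4 of 6 fits), ELOVL5 (2) and ACSS2 (1) did. DESeq2 called 730 genes and 1 of the 10. With GC content and length taken out, 2185 genes were called (1296 lower and 889 higher, against 354 and 46 as reported), 5 of the 10 were lower, and their median was -0.20. Leaving out 1 library at a time gave 109 to 4264 genes called, with the highest count without shControl replicate 1 (2300 lower and 1964 higher), 0 to 6 of the 10 called lower, and medians of -0.29 to -0.20. The calls of SREBF1, INSIG1 and ETFDH were lost in every such fit except that without shControl replicate 1. With the replicate number as a block 396 genes were called and 0 of the 10. The labels do not say whether same-numbered libraries belong together. Deviations of same-numbered libraries from their group means correlated at 0.138, -0.433 and 0.543. These correlations cannot decide it, since the deviations within a group depend on each other. Not every library correlated best with its own number. The cause of the changes with other settings was not tested. At 12212378 to 14393292 counts per library every lipogenic gene had at least 316 counts in each library. The part of counting error in the spread between libraries was not tested.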

Other observations

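Genes of fatty acid oxidation, the opposite route, were mostly higher by fold change in shSQLE. Of 21 tested, 16 were higher, where 6030 of all 12450 genes tested were. The median log2 fold change of the 21 was 0.10 against -0.01 over all genes. Past an adjusted p of 0.05 in the edgeR test, 1 was called higher and 0 lower. Over all genes, 0.369% were called higher and 2.84% lower. Without shControl replicate 1, 8 of the 21 were called in either direction, where 4264 of all 12570 genes tested were. With GC content and length taken out 3 were, where 2185 of all 12450 genes tested were. In 7 of the 21 the lowest shSQLE library was above the highest shControl library, where 10.0% of all genes tested did so. ETFDH, which passes electrons from acyl-CoA dehydrogenation to the respiratory chain, had normalized counts of 211, 222 and 213 in shControl replicates 1 to 3 and of 355, 327 and 325 in the shSQLE replicates, a log2 fold change of 0.64 (standard error 0.12, edgeR adjusted p = 0.0322). It was called in 1 of the 6 fits with a library left out (that without shControl replicate 1), and not with library size only (adjusted p = 0.0520) or with the replicate block (adjusted p = 0.0767). ETFDH overlaps PPID on the opposite strand, and 13.2% of the 100-base stretches of its transcript occur in transcripts of PPID. DESeq2 called 2 of the 21 in either direction, where it called 730 of all 12450 genes tested. SLC25A20, the mitochondrial carnitine carrier, was named after its values were seen, with 283, 218 and 247 in shControl and 413, 375 and 383 in shSQLE (log2 fold change 0.65, edgeR adjusted p = 0.0537). Its calls in the other fits are not given here. CPT1A, the rate-limiting carnitine acyltransferase, also named after its values were seen, was at -0.12 (adjusted p = 0.704).

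The SCD to FASN and FADS1 to FADS2 ratios within a library showed the same split of the controls. The SCD to FASN ratio of normalized counts was 1.09 in shControl replicate 1, at most 1.52 in the other controls, and 1.21 to 1.32 in shSQLE. The FADS1 to FADS2 ratio was 1.25 in shControl replicate 1, 1.82 and 1.89 in the other controls, and 1.48 to 1.94 in shSQLE. The ELOVL6 to ELOVL5 ratio, between transcripts of 41.4% and 39.9% GC content, was 0.657 to 0.694 in shControl and 0.582 to 0.606 in shSQLE. The groups did not overlap in this ratio, although they did for each of these genes alone. The share of all gene pairs with separate ratios was not computed, and the part of GC content in the ratios was not tested.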
